A study of Mus musculus with 26 samples.

Results

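The MHC class II genes described here are Cd74, H2-Aa, H2-Ab1, H2-Eb1, H2-DMa, H2-DMb1 and Ciita. These 7 genes were chosen by name and matched to their Ensembl identifiers among the 52636 genes measured by RNA sequencing in 26 libraries. The libraries came from mice lacking NSP4, the serine protease encoded by Prss57, and from their wild-type littermates. The wild-type (WT) and Prss57-/- (KO) groups held 4 libraries each of granulocyte-macrophage progenitors (GMPs), 4 each of common myeloid progenitors (CMPs) and 5 each of bone marrow-derived mast cells (BMMCs). The KO allele is a germline deletion of exon 2 made in C57BL/6N embryonic stem cells, so it is not limited to one cell type, and no treatment is described for these mice. GMPs and CMPs were sorted from female bone marrow as lineage-negative, SCA-1-negative, CD117+ and CD34+ cells, with high CD16/32 for GMPs and low CD16/32 for CMPs. BMMCs were grown from sorted GMPs of male mice with the cytokines IL-3 and SCF, and the culture was followed by CD117 and FcεRIα staining without a final sort that the sources used here describe. The study gives an age for mice used in flow cytometry and in its animal models. The age of the mice behind these libraries is not given in the sources used here. The progenitor and BMMC libraries were sequenced in separate runs, so a difference between BMMCs and progenitors cannot be told apart from one of sex or of run, and levels are set side by side for them without a test. The study describes its RNA sequencing replicates as biological, and the sources used here do not say whether each library came from a single animal or from pooled mice.

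MHC class II molecules are pairs of an α and a β chain that display peptides from endocytosed proteins to CD4+ T cells. H2-Aa and H2-Ab1 encode the chains of the H2-A molecule, and H2-Eb1 encodes the β chain of H2-E. Cd74 is the invariant chain, which blocks the peptide groove and guides the pair to endosomes, where cathepsins degrade it. H2-DMa and H2-DMb1 form H2-DM, which exchanges the last fragment of Cd74 for antigenic peptide. Ciita is the coactivator that is recruited to class II promoters by the RFX, CREB and NFY factors on the neighbouring X and Y boxes, and its RNA is scarce even in cells that display class II. Dendritic cells, macrophages and B cells display class II constitutively or on activation, and mast cells carry little unless stimulated.

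On GRCm38, 5 of the genes lie within chr17:34119541-34316674. In order along the chromosome these are H2-DMa from 34119541 to 34139101, H2-DMb1 from 34153072 to 34160230, H2-Ab1 from 34257689 to 34269419, H2-Aa from 34282744 to 34287823 on the reverse strand, and H2-Eb1 from 34305867 to 34316674. Ciita lies on chromosome 16, from 10480059 to 10528418, and Cd74 on another chromosome. All 7 are annotated as protein coding, and reads were counted over their exons. The RefSeq promoter table (GRCm38.p6, 250 bases before to 50 after each start) had entries for H2-Aa, H2-Eb1, H2-DMa and H2-DMb1. The promoters were searched on both strands for the end of the X box, written ACNGATG, followed 10 to 30 bases later on the same strand by the core of the Y box, ATTGG. The pair of motifs, which do not overlap, was found in 52 of 32851 promoters (0.158%). The X box end was found in 9.85% and the Y box core in 37.4%, each counted with or without the other. The stretches below are shown for their matches to the letters of these boxes, at which Ciita is recruited to class II promoters in general. They run 5′ to 3′ on the strand of the gene, with the matched motifs in capitals.
H2-Eb1, chr17:34305767-34305817, forward strand: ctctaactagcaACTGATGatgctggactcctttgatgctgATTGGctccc
H2-DMb1, chr17:34153088-34153139, forward strand: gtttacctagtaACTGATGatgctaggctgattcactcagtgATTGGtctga
H2-Aa, chr17:34287862-34287916, reverse strand: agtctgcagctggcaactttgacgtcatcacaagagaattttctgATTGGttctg
In H2-Eb1 the X box end began 88 bases and the Y box core 59 bases before the RefSeq start, and in H2-DMb1 they began 91 and 61 bases before its RefSeq start, which lies inside the gene span given above. H2-Aa held the Y box core 48 bases before its RefSeq start and no match to the letters searched for the X box. Neither of the 2 listed starts of H2-DMa had the pair. Among the other class II genes, H2-DMb2 and H2-Eb2 had the pair, and H2-Oa and H2-Ob did not. A match is a description of the letters and not a measured binding site.

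The GMP libraries held 35501671 to 51497962 reads on genes, the CMP libraries held 32078404 to 53264762 and the BMMC libraries held 18627626 to 28647216. Levels are given as the authors' normalized RPKM, that is, reads divided by gene length and by a size factor per library, so that genes can be compared with each other. Prss57 followed the labels, at 18064 to 26556 reads in WT GMPs against 6 to 25 in KO GMPs, and 2261 to 3926 reads in WT CMPs against 1 in each KO CMP library. WT BMMCs held 2 to 27 Prss57 reads and the 5 KO BMMC libraries held 0, which allows up to 3 counts per library. Several libraries lay apart from the rest of their group. Among genes with a median over 100 reads in the group, the level in KO BMMC library 3 was at least 2-fold away from the median of the other KO BMMC libraries for 20.7%. The same share was 21.6% for KO CMP library 2 and 12.3% for KO CMP library 1, against at most 3.68% for every other library. The class II fold changes are given with these libraries and, where leaving out 1 of these 3 turned a sign or a call, without it.

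Cd74, H2-Aa, H2-Ab1, H2-Eb1 and Ciita were higher in at least 9 of the 10 BMMC libraries than in any progenitor library, H2-DMa was lower in 9 of the 10, and H2-DMb1 overlapped. Cd74 was at a median of 12.1 normalized RPKM over the 16 progenitor libraries, from 6.90 to 28.3, and at 589 to 1317 in 9 of the BMMC libraries. All 10 BMMC libraries were above every progenitor library for Cd74, including KO BMMC library 3 at 40.4. The α chain gene H2-Aa had a progenitor median of 11.1 normalized RPKM, from 4.81 to 26.7, and was at 115 to 223 in the same 9 BMMC libraries. The β chain gene H2-Ab1 had a progenitor median of 34.9, from 20.9 to 68.4, and was at 94.9 to 202 in the 9 BMMC libraries. H2-Eb1 had a progenitor median of 6.35, from 2.65 to 11.7, and was at 63.0 to 136 in the 9 BMMC libraries. For these 3 chain genes the 9 BMMC libraries lay above every progenitor library, and KO BMMC library 3, at 7.54, 21.04 and 3.55 normalized RPKM, lay within the progenitor range. H2-Ea, the α chain gene that would complete H2-E and that carries a promoter deletion in the H2b haplotype of C57BL/6 mice, had 0 reads in all 26 libraries.

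The genes of H2-DM had another order. H2-DMa was highest in CMPs, at 105 to 170 normalized RPKM, lower in GMPs at 78.7 to 98.1, and lowest in BMMCs, at 44.2 to 78.7 in the 9 libraries and 7.03 in KO BMMC library 3. The highest of the BMMC libraries, KO library 5, and the lowest of the progenitor libraries, WT GMP library 4, were both at 78.7. H2-DMb1 had overlapping levels in all cell types, at 20.9 to 37.8 in progenitors and 29.4 to 44.4 in BMMCs. Of its 50-base stretches, 22.7% also occur in transcripts of H2-DMb2, so that reads from these stretches could not be counted uniquely, and 8.43% of those of H2-DMa occur in the neighbouring gene Brd2. Ciita was at most 0.103 normalized RPKM in progenitors, from 0 to 32 reads per library, and at 1.00 to 2.37 in the 9 BMMC libraries, from 116 to 349 reads. H2-DMa was therefore the most abundant of the 7 genes per length in GMPs and CMPs, and Cd74 was the most abundant in BMMCs.

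**Figure D1:**
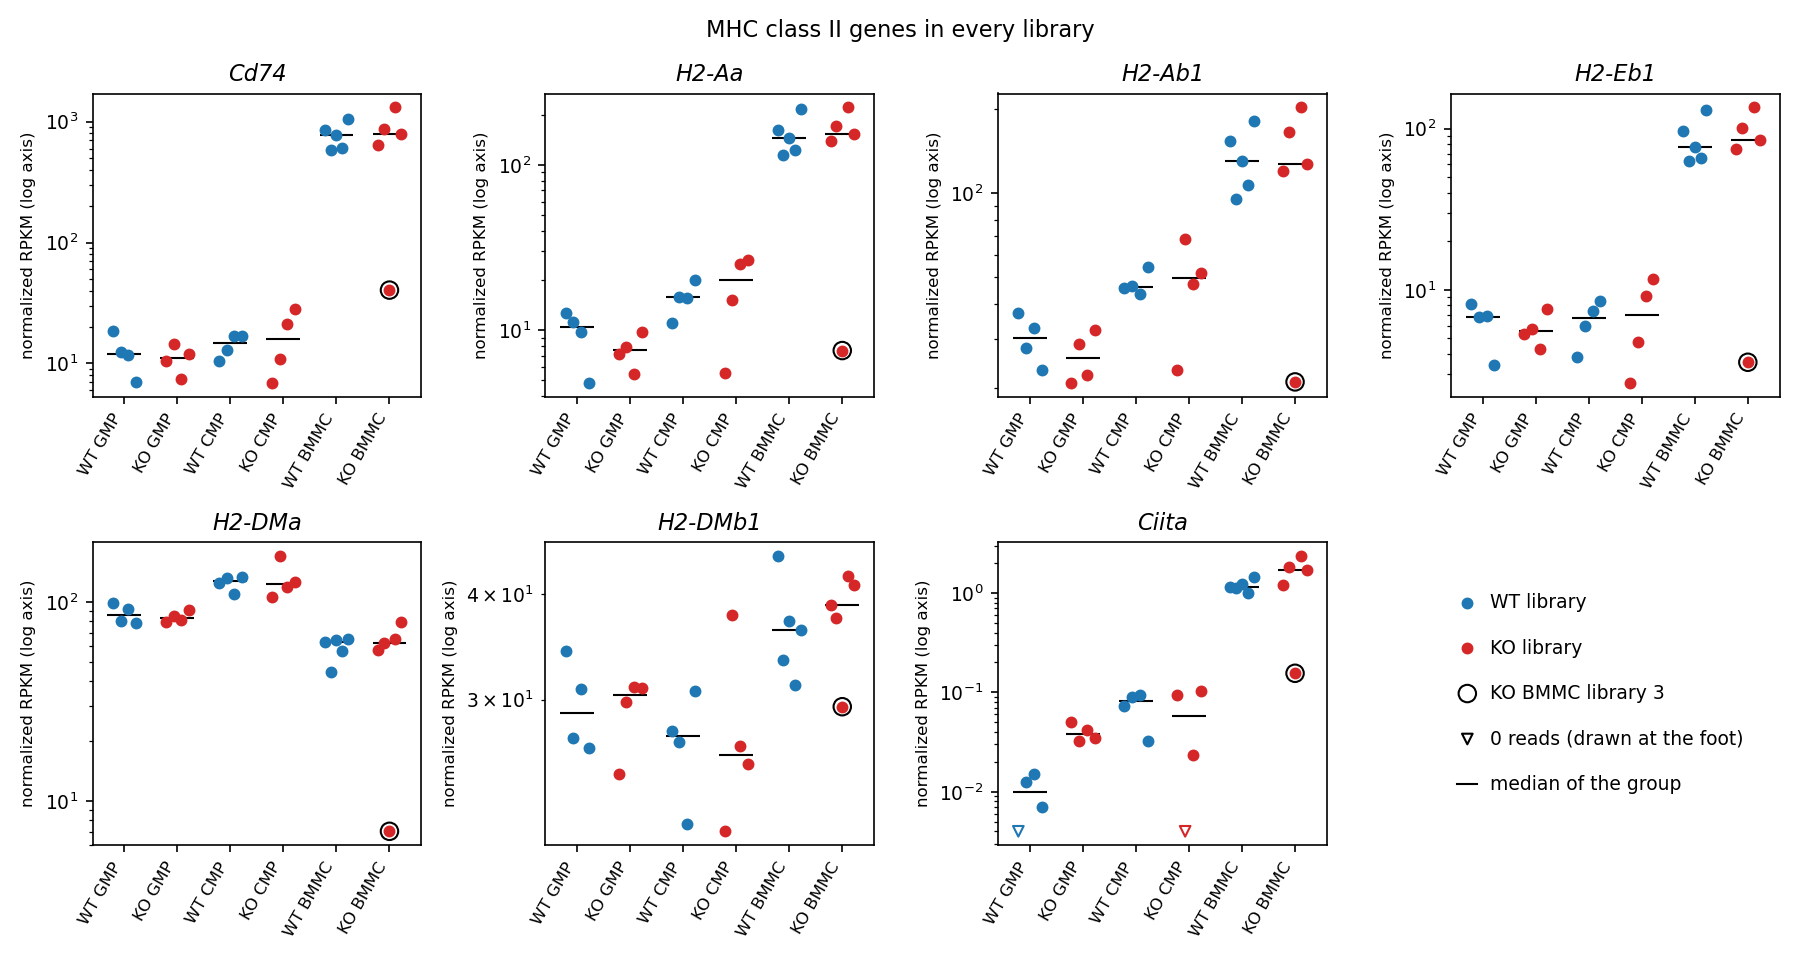
Normalized RPKM (log axis) of the 7 MHC class II genes in each of the 26 libraries, by group, with the median of each group as a line. Cd74, H2-Aa, H2-Ab1, H2-Eb1 and Ciita are high in 9 BMMC libraries, H2-DMa is highest in CMPs, and the circled KO BMMC library 3 lies below the other BMMC libraries in every panel.

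Since H2-Aa and H2-Ab1 encode partners of 1 molecule, their ratio was taken within each library. In the 16 progenitor libraries the level of H2-Ab1 was 1.87 to 4.83 times that of H2-Aa. In 9 BMMC libraries it was 0.824 to 0.959 times that of H2-Aa, and in KO BMMC library 3 it was 2.79 times. For H2-Ab1 over H2-Aa, KO BMMC library 3 was thus within the range of the progenitors. The ratio of Cd74 to H2-Aa was 0.713 to 1.82 in the progenitor libraries and 4.65 to 5.91 in the 9 BMMC libraries. In KO BMMC library 3 this ratio was 5.36, within the range of the other BMMC libraries although both genes were low there.

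**Figure D2:**
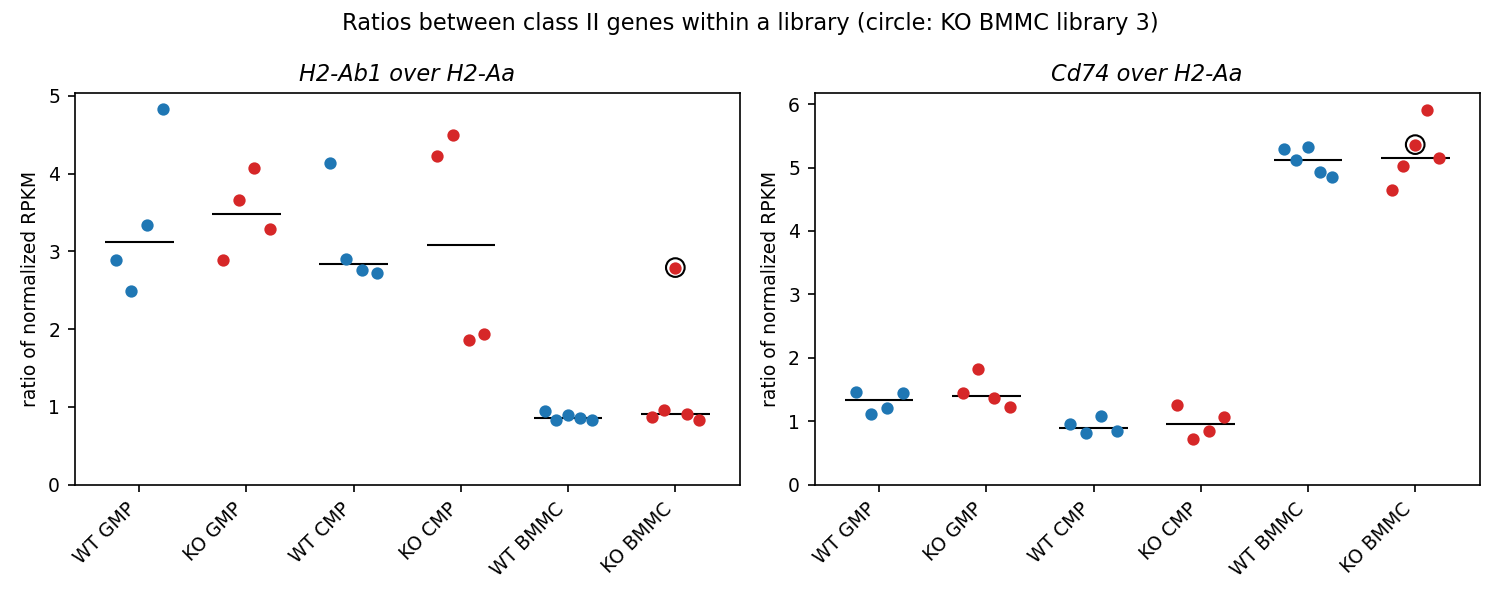
Ratio of normalized RPKM of H2-Ab1 to H2-Aa (left) and of Cd74 to H2-Aa (right) in each library, by group, with the median as a line. The circled KO BMMC library 3 lies at 2.79 on the left, among the progenitors, and at 5.36 on the right, among the other BMMC libraries.

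The BMMC libraries were next compared one by one. Cd74 was at 855, 589, 778, 609 and 1059 normalized RPKM in WT libraries 1 to 5 and at 644, 863, 40.4, 1317 and 789 in KO libraries 1 to 5. H2-Aa was at 162, 115, 146, 124 and 218 in the WT libraries and at 139, 171, 7.54, 223 and 153 in the KO libraries. H2-Eb1 was at 96.9, 63.0, 77.2, 65.7 and 130 in the WT libraries and at 74.6, 101, 3.55, 136 and 84.4 in the KO libraries. For each of these genes WT library 2 was the lowest of the 9 libraries other than KO library 3, and KO library 4 was the highest. H2-DMa was at 63.1, 44.2, 64.2, 56.7 and 64.9 normalized RPKM in the WT libraries and at 57.5, 61.8, 7.03, 65.3 and 78.7 in the KO libraries. Ciita was at 1.14, 1.11, 1.22, 1.00 and 1.45 in the WT libraries and at 1.20, 1.84, 0.156, 2.37 and 1.70 in the KO libraries. The coefficient of variation over the 9 libraries was 23.6% to 28.7% for Cd74, H2-Aa, H2-Ab1 and H2-Eb1, 30.7% for Ciita, 14.8% for H2-DMa and 10.96% for H2-DMb1.

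KO BMMC library 3 was the lowest of the 10 BMMC libraries for each of the 7 genes. Of the 13938 genes tested in BMMCs, 36.9% were also lowest in this library, which is therefore no mark of these genes alone. The median of the other 9 libraries was 23.8 times its level for H2-Eb1, 20.3 times for H2-Aa and 19.5 times for Cd74. It was 8.98 times for H2-DMa, 7.85 times for Ciita at 14 reads, 6.19 times for H2-Ab1 and 1.28 times for H2-DMb1. By these ratios 6 of the 7 genes were at least 5-fold below the median of the other libraries, against 8.62% of all genes tested, and 3 were at least 10-fold below it, against 5.12%. The median ratio over the 7 genes was 8.98. In each of the other 9 libraries, between 0.66% and 1.76% of all genes tested were at least 2-fold below the median of the rest, against 16.5% in KO library 3. KO library 3 is a single library without a replicate, so no test stands behind these ratios.

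The genes around the class II pathway were low in KO BMMC library 3 in some groups and not in others. The endosomal proteases and the thiol reductase that prepare peptides and degrade Cd74 were below the other 9 libraries for 6 of 6 genes, with Ctss, the cathepsin that makes the last cut of Cd74, at 116 against 967 to 1897 normalized RPKM and Ctsd at 2307 against 3347 to 5922. The costimulation and class II turnover genes were below the other libraries for 5 of 5, with Cd86 at 1.96 against 10.8 to 22.5 and Marchf1, the ubiquitin ligase that removes class II from the surface, at 0.794 against 8.36 to 15.7. Of 9 genes for induction by interferon or lineage factors, 6 were below the other libraries. Among them were Irf4 at 0.159 against 4.77 to 10.6, Irf8 at 1.92 against 16.5 to 33.5, and both chains of the interferon-γ receptor, while Jak1 at 92.2 and Jak2 at 39.3 lay within the range of the other libraries and Irf1, at 17.3 against 10.9 to 13.4, lay above it. The RFX subunit genes were not low, with Rfx5 at 13.1 against 5.71 to 6.48, Rfxank at 9.56 against 4.55 to 6.30, and Rfxap at 5.35 within 4.38 to 6.06. Nfya and Creb1 were below the other libraries, at 21.2 against 26.7 to 33.3 and at 5.74 against 7.06 to 8.01, and Nfyb was above them, at 17.3 against 13.8 to 16.7.

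The remaining class II genes were split in the same library. H2-DMb2, the paralog of H2-DMb1, was at 0.157 normalized RPKM on 4 reads, against 1.66 to 2.91 in the other BMMC libraries. H2-Oa and H2-Ob encode H2-O, an inhibitor of H2-DM. H2-Oa was at 5.75 against 10.7 to 28.9, whereas H2-Ob was above the others, at 10.4 against 3.80 to 5.89. Of the 9 class I presentation genes 4 were below the other 9 libraries, 2 above and 3 within, with a median ratio of the other libraries to KO library 3 of 1.09. The 2 most abundant, B2m and H2-D1, were at 1356 against 1421 to 1864 and at 479 against 484 to 597 normalized RPKM. Nlrc5, the class I counterpart of Ciita, was at 0.151 against 1.45 to 2.74.

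Markers of antigen-presenting cells were measured beside the class II genes, since the BMMC label does not exclude other cells of the culture. By CD117 and FcεRIα staining the study describes such cultures as almost wholly mast cells, and the sources used here do not tie that staining to these libraries. The 9 BMMC libraries other than KO library 3 held 12 macrophage markers at a summed level of 1061 to 1683 normalized RPKM, with C1qb as the most abundant at a mean of 500, and Csf1r, the receptor for macrophage colony-stimulating factor, at 106 to 176. The 6 monocyte markers summed to 9618 to 18921, nearly all from Lyz2. The 11 dendritic cell markers summed to 87.9 to 133, with Clec10a, which macrophages also express, as the most abundant at 47.9. Itgax, which macrophages express as well, was at 26.4 to 69.0. Of the other dendritic cell markers, Ccr7 was at 2.70 to 15.95, Batf3 at 3.39 to 7.53 and Fscn1 at 1.38 to 5.87. Clec9a was at 0.520 to 1.77, Zbtb46 at 0.298 to 0.895 and Cd209a at 0 to 0.143. Flt3 had 5 to 34 reads per library, and Xcr1 and Siglech had 0 or 1 read. The 8 B cell markers summed to 1.21 to 1.91, mostly from Cd22 at 0.690 to 1.51, with 9 to 19 reads of Cd79b and 0 or 1 read of Pax5 and Ms4a1. The mast cell markers, led by Tpsb2 and Cpa3, summed to 25993 to 47850, so the mast cell label was borne out by these genes and the macrophage markers were present beside them.

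In KO BMMC library 3 these markers were low together with class II. Its macrophage markers summed to 107 normalized RPKM, with 10 of 12 below the other 9 libraries and a median ratio of 13.05. Csf1r was at 12.3 and C1qb, a subunit of the complement component C1q, at 36.4 against 387 to 606. Its dendritic cell markers summed to 8.32, with 8 of 11 below the others, and Flt3, Clec9a, Ccr7 and Fscn1 had 0 reads there. Its monocyte markers summed to 1016, with 5 of 6 below the others and Lyz2 at 978 against 9432 to 18667. The B cell markers summed to 0.456, with Cd22 at 0.215 on 18 reads. Low sums were also seen for the neutrophil markers, at 36.5 against 132 to 294, and the basophil markers, at 338 against 457 to 835. Of the neutrophil markers 4 of 7 were below the others, with Mmp8 at 11.1 against 90.6 to 178. Camp, Ngp and Ly6g lay within the range of the others. Of the 3 basophil markers Cd200r3 went the other way, at 231 against 137 to 224. Among the monocyte markers F13a1 was the exception, at 13.9 within a range of 0.869 to 15.1. The mast cell markers summed to 76673, with 9 of 12 above the other libraries, as were 34.8% of all genes tested. Kit was at 1002 against 277 to 734, Cpa3 at 29822 against 10304 to 16854, and Cma1, the chymase gene, at 14490 against 1565 to 3836. The exceptions were Tpsab1, at 13.3 against 513 to 1178, Hdc at 88.6 against 125 to 175, and Tpsb2 within the range of the others. Fewer antigen-presenting cells and less class II RNA per cell cannot be told apart in bulk libraries, and the part of other cells in the class II levels was not tested.

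**Figure D3:**
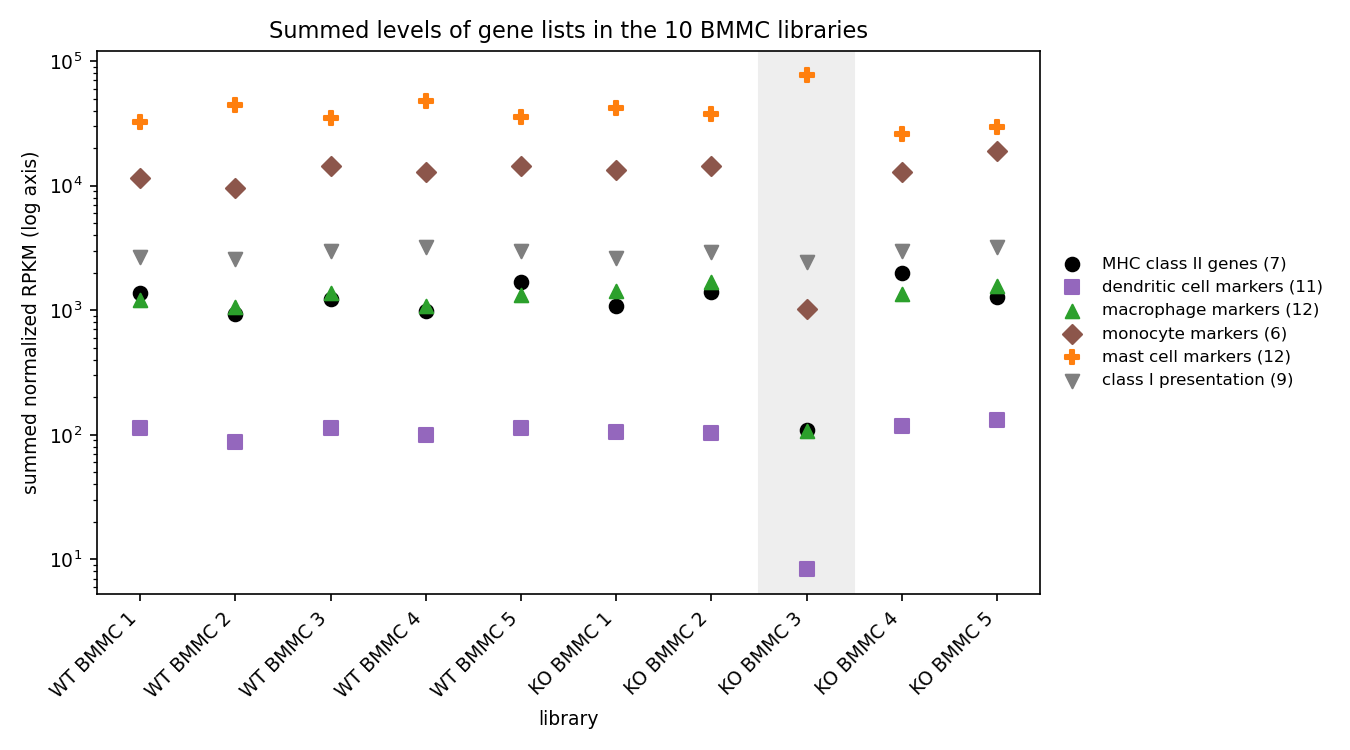
Summed normalized RPKM (log axis) of 6 gene lists in the 10 BMMC libraries, with KO BMMC library 3 shaded. The class II, dendritic cell, macrophage and monocyte sums are all lowest in KO library 3, at 109, 8.32, 107 and 1016, its mast cell sum is the highest at 76673, and its class I sum of 2455 is below the lowest of the others at 2570.

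**Figure D4:**
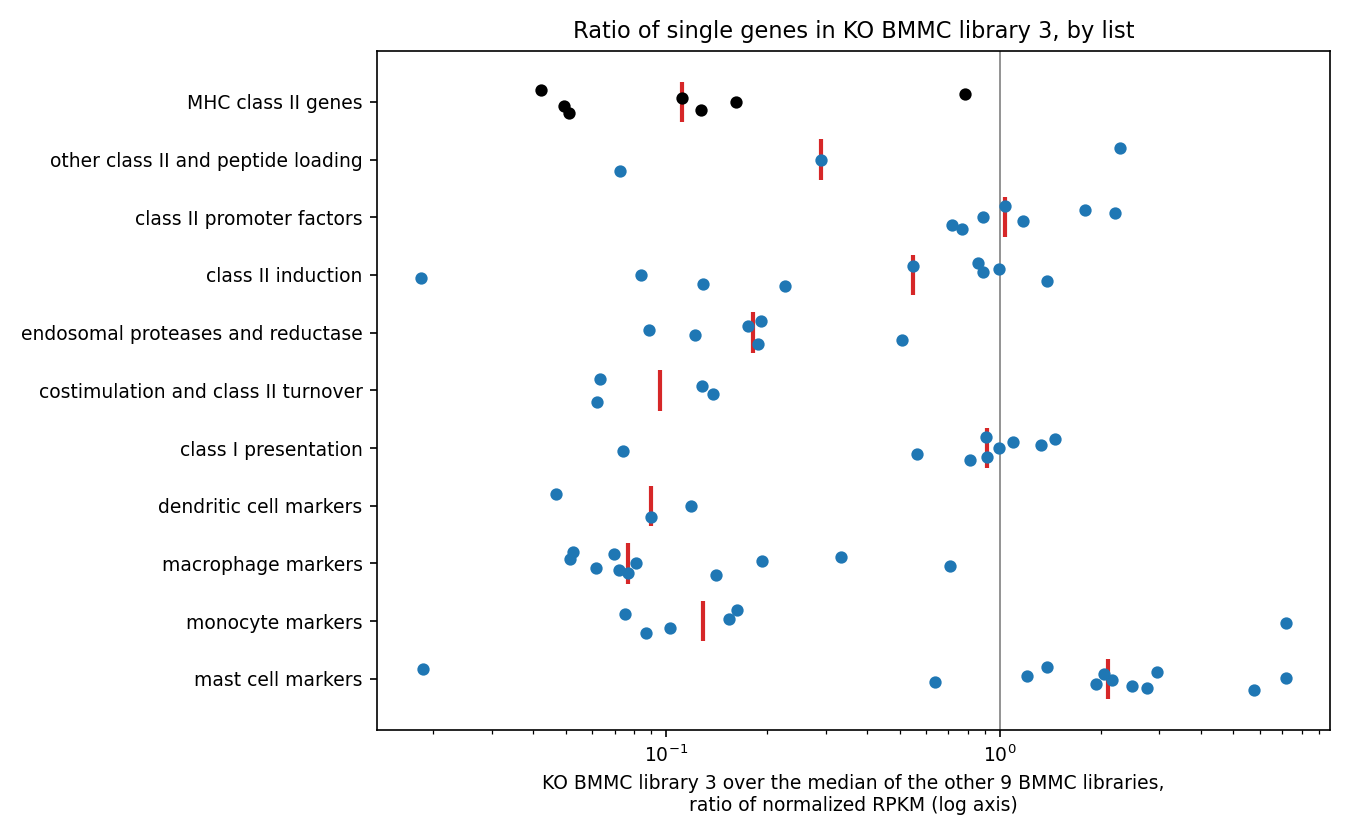
Ratio of the normalized RPKM in KO BMMC library 3 to the median of the other 9 BMMC libraries (log axis), with 1 point per gene and the median of each list in red. Genes with too few reads for a ratio are not drawn. Of the class II genes all but H2-DMb1 lie far to the left of 1. So do the costimulation genes drawn and the macrophage genes drawn other than Marco, at 0.334, and Cd163, at 0.706. The medians of promoter factors and class I genes lie near 1.

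Among the other 9 BMMC libraries, the highest summed level of the 7 class II genes was 1988 normalized RPKM in KO library 4 and the lowest was 940 in WT library 2. KO library 4 also had the lowest sum of mast cell markers, 25993, while its macrophage sum of 1350 was the median of the 9. WT library 2 had the lowest macrophage, monocyte and dendritic cell sums of the 9. Cd74 correlated with the mean of the other class II genes at r = 0.94 over these 9 libraries, H2-Aa at 0.93, H2-Ab1 at 0.94 and H2-Eb1 at 0.93, and Ciita, H2-DMa and H2-DMb1 at 0.77, 0.62 and 0.62. With KO library 3 the same r was 0.96 to 0.99 for 6 of the genes and 0.70 for H2-DMb1. These are correlations of log2 CPM over 10 or 9 libraries that share their normalization, given as a description. The 5 genes most like the mean of the class II genes over the 10 libraries were Pilra (r = 0.996), Osbpl1a, Dram1, Hr and Pde4b, of 13931 genes ranked. Without KO library 3, Pilra (r = 0.96), Retsat, Utp14b and Ninl were the most alike, and of these Pilra was also among the 5 over all 10 libraries. Pilra, an inhibitory receptor of myeloid cells, was at 20.2 to 35.6 normalized RPKM in the 9 libraries and at 5.57 in KO library 3.

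The first comparison with replicates asked whether loss of NSP4 changed class II RNA in BMMCs. None of the 7 genes passed the call rule, a change of 2-fold or more with an adjusted p below 0.01 in edgeR's quasi-likelihood test, against 0.0% of 13938 genes. With all 10 libraries, none was under an unadjusted p of 0.05 by edgeR, limma voom or DESeq2. The log2 fold changes of KO over WT were -0.10 for Cd74 (standard error 0.62), -0.15 for H2-Aa (0.61), -0.07 for H2-Ab1 (0.46), -0.12 for H2-Eb1 (0.64) and -0.12 for H2-DMa (0.46). They were 0.04 for H2-DMb1 (0.12) and 0.29 for Ciita (0.49), and the median over the 7 genes was -0.10, against 0.01 over all genes tested. The genotypes overlapped for all 7, and did not for 0.717% of all genes tested. The sign of 5 of these values turned without KO library 3, and that of Cd74, H2-Aa, H2-Ab1 and H2-Eb1 also without WT library 5, to between 0.021 and 0.074. Without KO library 3 the log2 fold changes were 0.21 for Cd74 (standard error 0.23), 0.16 for H2-Aa (0.20), 0.20 for H2-Ab1 (0.21), 0.18 for H2-Eb1 (0.24) and 0.16 for H2-DMa (0.12). Ciita was then 0.58 higher in KO BMMCs on the log2 scale (standard error 0.18), under an unadjusted p of 0.05 but not past the correction (edgeR, unadjusted p = 0.00819, adjusted p = 0.581). Without KO library 4 instead it was 0.039 (standard error 0.51), the other end of its range over the libraries left out.

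In GMPs the class II genes of the genotypes likewise overlapped, except for Ciita. None of the 6 genes that passed edgeR's filter on low counts was called, against 0.00681% of 14689 genes, and none was under an unadjusted p of 0.05 by edgeR, limma voom or DESeq2. Cd74 was at 18.7, 12.3, 11.8 and 6.98 normalized RPKM in WT GMPs and at 10.4, 14.3, 7.49 and 11.97 in KO GMPs. On the log2 scale the KO over WT difference, with its SE in parentheses, was -0.17 (0.28) for Cd74, and that of H2-Aa was -0.34 (0.28), that of H2-Ab1 -0.21 (0.18) and that of H2-DMa -0.05 (0.10). Ciita was under the filter, with 0, 4, 4 and 2 reads in WT GMP libraries 1 to 4 and 16, 9, 11 and 7 reads in KO GMP libraries 1 to 4. Every KO GMP library was above every WT GMP library. The mean level of Ciita was 0.0399 ± 0.00820 normalized RPKM (SD, n = 4) in KO GMPs and 0.00867 ± 0.00666 (SD, n = 4) in WT GMPs (exact permutation, two-sided, p = 0.0286, which is the lowest value for groups of 4). For Ciita without the filter, the edgeR p-value was 0.0327 before adjustment and 1.00 after it. Of the genes tested in GMPs, 0.994% had groups that did not overlap, 0.422% with KO above WT, and Ciita is not among the genes of that count. In 1 WT GMP library Ciita had 0 reads, which allows up to 0.0699 CPM, and the WT counts were at or near the floor of 3 reads, so that no fold is given. The summed macrophage markers were 43.6 to 61.0 normalized RPKM in WT GMPs and 53.7 to 79.3 in KO GMPs, and the dendritic cell markers 10.4 to 13.6 and 9.92 to 12.7.

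In CMPs none of the 7 genes was called between the genotypes, against 0.0067% of 14916 genes. The genotypes overlapped for all 7, and did not for 0.818% of all genes, and none of the 7 was under an unadjusted p of 0.05 by the 3 tools. Cd74 was at 10.5, 12.9, 17.01 and 16.8 normalized RPKM in WT CMPs and at 6.90, 10.8, 21.2 and 28.3 in KO CMPs. H2-Ab1 was at 45.5, 46.3, 43.6 and 54.4 in WT CMPs and at 23.1, 68.4, 47.1 and 51.8 in KO CMPs. KO CMP library 1 was the lowest of the 8 CMP libraries for Cd74, H2-Aa, H2-Ab1, H2-Eb1, H2-DMa and H2-DMb1, and KO CMP library 2 was the highest for H2-Ab1, H2-DMa and H2-DMb1. The log2 fold changes of KO over WT ranged from -0.39 for Ciita (standard error 0.83) to 0.21 for Cd74 (0.40). That of Ciita was -0.025 without KO CMP library 2, -0.80 without KO CMP library 4 and -1.02 by limma voom. Without KO CMP library 1 that of H2-Ab1 turned from -0.02 to 0.18, and without KO CMP library 2 that of H2-DMa turned from 0.04 to -0.11 and that of H2-DMb1 from 0.03 to -0.15. None of the 7 genes was called without either library. Ciita had 18, 24, 31 and 7 reads in WT CMPs and 32, 0, 8 and 22 reads in KO CMPs.

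The progenitors were compared with each other within each genotype, since they were sequenced in 1 run. In WT mice none of the 6 genes that passed the filter was called, against 12.8% of 14967 genes. None of the 6 reached a 2-fold change. H2-Ab1 and H2-DMa were lower in GMPs than in CMPs at an adjusted p under 0.05, which was reached by 37.8% of all genes. H2-DMa was at 98.1, 80.2, 91.5 and 78.7 normalized RPKM in WT GMPs and at 124, 131, 109 and 134 in WT CMPs, without overlap. The groups did not overlap for 31.5% of all genes and were lower in GMPs for 16.1%. By edgeR it was -0.50 on the log2 scale (SE 0.11) with an adjusted p of 0.00553, which ranged from 0.000172 to 0.0264 over the alternatives. H2-Ab1 was at 37.0, 27.7, 32.7 and 23.2 in WT GMPs and at 45.5, 46.3, 43.6 and 54.4 in WT CMPs, without overlap. By edgeR it was -0.64 on the log2 scale (SE 0.15) with an adjusted p of 0.00817, which ranged from 0.000547 to 0.0304 over the alternatives. H2-Aa, its partner, was -0.69 (SE 0.28) on the same scale and missed the threshold (edgeR, adjusted p = 0.0770, from 0.0293 to 0.204 over the alternatives). Cd74, H2-Eb1 and H2-DMb1 had log2 fold changes of -0.19, -0.01 and 0.17, with adjusted p-values of 0.604, 0.982 and 0.330. The median over the 6 genes was -0.34, against -0.02 over all genes tested. Ciita, under the filter, was at 0.00867 ± 0.00666 normalized RPKM (SD, n = 4) in WT GMPs and 0.0720 ± 0.0276 (SD, n = 4) in WT CMPs, without overlap (exact two-sided permutation p = 0.0286, the smallest possible). No fold is given against WT GMP counts near the floor. With 1 library left out, Ciita passed the filter in 5 of the fits, through the CMP libraries where it is higher, and nothing is read from those fits.

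In KO mice none of the 7 genes was called between GMPs and CMPs, against 8.42% of 14959 genes. H2-DMa was at 79.3, 85.0, 81.2 and 90.8 normalized RPKM in KO GMPs and at 105, 170, 119 and 126 in KO CMPs, without overlap, against 28.5% of all genes in either direction and 14.0% lower in GMPs. By edgeR it was -0.58 on the log2 scale (SE 0.17) with an adjusted p of 0.0355, which ranged from 0.00399 to 0.108 over the alternatives and was under 0.05 for 21.5% of all genes. H2-Aa had a log2 fold change of -1.22 (standard error 0.44, adjusted p = 0.0753 from edgeR) and H2-Ab1 of -0.82 (0.30, adjusted p = 0.0780). Both were called lower in GMPs without KO CMP library 1, at -1.52 and -1.04 with adjusted p-values of 0.00322 and 0.00437 from edgeR. Over the alternatives their adjusted p-values reached up to 0.182 and 0.191. Neither gene was called without KO CMP library 2, at -1.31 and -0.61. The count of all genes called was 785 to 2266 with 1 library left out, against 1259 with every library.

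Genes of the same pathway and markers of other cells differed between GMPs and CMPs as well. H2-Ob was called lower in GMPs in both genotypes, with log2 fold changes of -1.56 (standard error 0.25) in WT and -1.79 (0.25) in KO, while its partner H2-Oa was at 17.3 to 23.7 normalized RPKM in WT GMPs and 15.1 to 21.8 in WT CMPs. Spi1, a myeloid transcription factor, was called higher in GMPs in both genotypes, at 1.32 and 1.25, Ifngr2 was called higher in WT, at 1.12, and Lgmn, an endosomal protease, was called lower in WT, at -1.93. None of the 7 promoter factors and 9 class I genes was called in either genotype. Of the 9 dendritic cell markers tested in WT, 4 were called lower in GMPs and 0 higher. These were Flt3, at -2.65, Zbtb46, at -3.53, Clec9a, at -1.85, and Ccr7, at -2.04, and in KO 2 of 9 were called lower. Their summed level was 10.4 to 13.6 normalized RPKM in WT GMPs and 40.5 to 49.2 in WT CMPs, of which Flt3, which early progenitors also express, gave a mean of 36.4 in CMPs. Of the macrophage markers, C1qa, C1qb and C1qc were called lower in WT GMPs, and Adgre1 and Csf1r were called higher, of 8 tested. In KO GMPs Adgre1 was called higher and Cd163 lower, and the difference between the genotypes was called for 0 of the 9 tested. The monocyte, neutrophil, basophil and mast cell markers had calls in the other direction, with 3 of 6, 6 of 7, 3 of 3 and 6 of 9 tested called higher in WT GMPs, 3 of 6, 5 of 7, 3 of 3 and 6 of 10 in KO GMPs, and 0 lower in either. The B cell markers summed to 27.1 to 51.2 normalized RPKM over the progenitor libraries, nearly all from Cd79b at 26.8 to 50.9, and neither of the 2 tested was called. Pax5 and Ms4a1, which define B cells, had at most 20 reads in any progenitor library. The part of other cells in the lower H2-Ab1 and H2-DMa of GMPs was not tested.

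**Figure D5:**
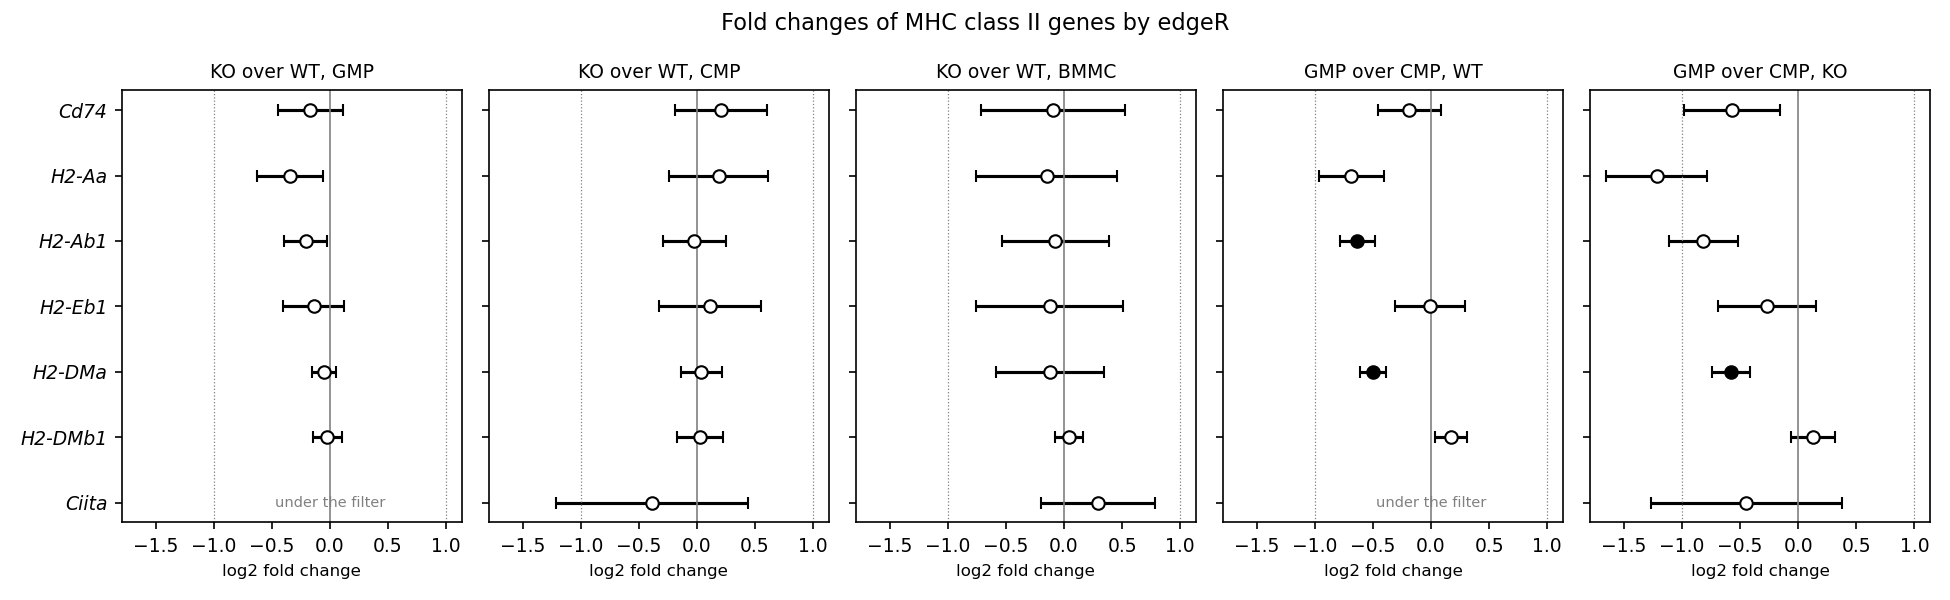
Log2 fold change of each class II gene by edgeR in 5 comparisons, with its standard error as the bar, filled points for an adjusted p under 0.05 and dotted lines at a 2-fold change. The KO over WT values lie around 0 in every cell type, and the filled points are H2-Ab1 and H2-DMa in WT and H2-DMa in KO, all lower in GMPs than in CMPs.

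The genotype effect in GMPs was tested against that in CMPs in 1 fit of the 16 progenitor libraries. None of the 7 genes had an adjusted p under 0.01 by edgeR, against 0.0% of 15900 genes, nor by limma voom or DESeq2. At an unadjusted p under 0.05 by edgeR were 1.06% of all genes and 1 of the 7 class II genes, Ciita, which was also under it by limma voom and DESeq2. The edgeR p-value of Ciita was 0.0493 before adjustment and 1.00 after it, and before adjustment it was 0.0549 with library size alone, 0.0540 without the filter and 0.0783 with the replicate block. Ciita entered this fit through the groups where it is higher, with WT GMP counts near the floor, so no size is given and nothing is read from these p-values. The other 6 genes had differences between -0.54 for H2-Aa (standard error 0.54) and -0.06 for H2-DMb1 (0.23). Without KO CMP library 2 those of H2-Ab1, H2-DMa and H2-DMb1 turned to 0.019, 0.050 and 0.12. Over the 16 progenitor libraries, H2-Aa correlated with the mean of the other class II genes at r = 0.94, H2-Ab1 at 0.83 and Cd74 at 0.76, and H2-DMb1 and Ciita at -0.11 and -0.16. The 5 genes most like the class II mean there were Rpl10-ps3 (r = 0.88), Plbd1, Adi1, Nabp1 and Mterf4, and none of these was among those named for BMMCs. These correlations pool 4 groups, KO CMP libraries 1 and 2 included, and are given as a description.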

How the data were processed

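RNA was sequenced in 26 libraries. The authors used HTSeqGenie, with GSNAP as aligner and GRCm38 as genome, and kept reads that aligned uniquely to exons. The strand setting and annotation release are not given in the sources used here. The authors deposited per library the counts per gene, without normalization, and normalized RPKM, which equals the count divided by a gene constant and by median-of-ratios size factors over all 26 libraries. The depth was 18627626 to 53264762 reads on genes, and floors of 3 counts cover counting error only.

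Genotypes were compared within each cell type, and GMPs with CMPs within each genotype, on the counts with edgeR 4.0.16 in R 4.3.3 (TMM, filterByExpr, robust quasi-likelihood test, Benjamini-Hochberg adjustment over all genes tested). Genes with an adjusted p under 0.01 and at least a 2-fold change were called, and the interaction was called at an adjusted p under 0.01. Members under the filter were compared by exact permutation on normalized RPKM. The smallest p was 0.0286 for 4 libraries against 4 and 0.00794 for 5 against 5. KO BMMC library 3 was set beside the median of the other 9 BMMC libraries without a test. Likeness used log2 CPM with a prior count of 2. Alternatives were limma voom (limma 3.58.1), DESeq2 1.42.0, library size alone, no filter, a replicate block, an adjusted p under 0.05 at any fold change, and each library left out. CPM and TMM-normalized CPM for KO BMMC library 3 were added after seeing the data. The edgeR design was also run on simulated counts in which no library was made to lie apart from its group. Nothing is read from that run.

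The class II genes, the pathway and marker lists and the tests were chosen with earlier results of these data known. Named were the class II genes, listed genes that were called or among the 2 most abundant of their list, and the 5 genes most like the class II mean. Some genes under this rule are not reported here. Other listed genes, the H2-Aa promoter and the ratios between class II genes were named after their values were seen. Of the 52636 genes, 52403 were found in GENCODE M21, which gave positions and transcripts, and shared sequence was measured in 50-base stretches. Promoters came from RefSeq. Figures were drawn with matplotlib 3.10.9, and permutation tests used scipy 1.17.1, both under Python 3.11.15.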

Additional observations from a re-analysis of the deposited data

Results flagged for a closer look

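Values of class II genes and marker sums were tested within groups of 4 or 5 libraries for a library far from the others. Of 66 such values, 2 passed the limit. Chance alone flags about 1 in 20 such groups, so 2 of 66 is no more than chance would flag. Both were in KO BMMC library 3. The summed macrophage markers of this library, 107 normalized RPKM against 1350 to 1683 in the other KO BMMC libraries, left a gap of 0.789 of the group's whole range. The summed dendritic cell markers, 8.32 against 103 to 133, left a gap of 0.764. The 7 class II genes were lowest in the same library, and none of their own gaps passed the limit. The part of other cells in these values was not tested.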

How the results depend on the processing

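No class II gene was called between the genotypes, or in the interaction, under any alternative run. For all genes, 2 were called in GMPs at an adjusted p under 0.05 and by DESeq2, and 1 to 2 with a library left out, and 3 were called in CMPs by DESeq2. Between GMPs and CMPs in WT, an adjusted p under 0.05 gave 5664 genes and 2 class II genes, and leaving out a library gave 1542 to 2515 genes and 0 to 1 class II genes, the 1 being Ciita without WT GMP library 1, which entered that fit through the CMP libraries where it is higher. In KO, an adjusted p under 0.05 gave 3222 genes and 1 class II gene, DESeq2 gave 2156 genes, and leaving out a library gave 785 to 2266 genes and 0 to 2 class II genes.

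Signs turned for small or uncertain log2 values, and the cause was not tested. In KO against WT CMPs, limma voom gave -0.034 for H2-Aa, -0.053 for H2-Eb1 and -0.0016 for H2-DMb1, and library size alone gave -0.082 for H2-DMa and -0.094 for H2-DMb1. In BMMCs limma voom gave -0.021 for Ciita. For GMPs against CMPs, no filter gave 0.028 for H2-Eb1 in WT, and limma voom gave 0.28 for Ciita in KO. In the interaction, library size alone gave 0.040 for H2-DMa and 0.078 for H2-DMb1. The replicate block gave -0.0049 for H2-Aa and -0.035 for H2-Eb1 in CMPs and 0.034 for Ciita between KO GMPs and CMPs. It called 1 gene in GMPs, 1 in CMPs, 0 in BMMCs, 2000 between GMPs and CMPs in WT, 1311 in KO and 0 in the interaction, and no class II gene. Libraries of the same number did not deviate together in every pair of any comparison, so the numbers were not taken to pair the libraries.

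With a library left out, KO against WT in GMPs ranged from -0.35 to 0.10 for Cd74, -0.33 to 0.015 for H2-Eb1, -0.087 to 0.016 for H2-DMa and -0.065 to 0.064 for H2-DMb1. In CMPs it ranged from -0.15 to 0.46 for Cd74, -0.051 to 0.48 for H2-Aa, -0.24 to 0.18 for H2-Ab1, -0.23 to 0.39 for H2-Eb1, -0.11 to 0.10 for H2-DMa and -0.15 to 0.11 for H2-DMb1. In BMMCs it ranged from -0.42 to 0.21 for Cd74, -0.39 to 0.16 for H2-Aa, -0.31 to 0.20 for H2-Ab1, -0.41 to 0.18 for H2-Eb1, -0.30 to 0.16 for H2-DMa and -0.0081 to 0.13 for H2-DMb1. GMPs against CMPs ranged from -0.43 to 0.011 for Cd74 and -0.19 to 0.20 for H2-Eb1 in WT, and from -0.54 to 0.11 for H2-Eb1 in KO. The interaction ranged from -0.40 to 0.019 for H2-Ab1, -0.53 to 0.084 for H2-Eb1, -0.15 to 0.050 for H2-DMa and -0.14 to 0.12 for H2-DMb1.

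For KO BMMC library 3, added after seeing the data, the ratios of the median of the other 9 libraries to it were 19.7 on CPM and 20.0 on TMM-normalized CPM for Cd74, and 1.29 and 1.30 for H2-DMb1. Ciita had at most 32 reads in a progenitor library, so its values there carry the largest relative counting error of the 7 genes.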
